A study of Homo sapiens with 2 samples.

Results

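The histone genes described here are 63 annotated genes of the table, chosen by a rule on gene symbols: 54 genes whose symbol begins with HIST1H, HIST2H, HIST3H or HIST4H, called clustered genes, and 9 replacement variant genes. The variant genes are H2AFZ, H2AFV, H2AFX, H2AFY, H2AFJ, H3F3A, H3F3B, H1FX and H1F0. The 63 are out of 16645 annotated genes with at least 1 read, and other histone genes with reads, such as CENPA, lie outside the rule. The reads came from GM12878, a B-lymphoblastoid line of human cells transformed with Epstein-Barr virus, whose native RNA was sequenced on Oxford Nanopore flow cells in 2 libraries of 1 group, named replicates 1 and 2. The labels give no treatment, no batch and no statement that the replicates came from separate cultures. A p-value here sets the difference between these 2 libraries against counting error alone, and such a difference may be technical. Replicate 1 held 1360368 reads and replicate 2 held 1510998, so that 1 read was worth 0.735 and 0.662 CPM (counts per library total scaled to 1e6). The line matched its label by markers: the B cell genes CD74, CD79A, MS4A1 and PAX5 had 54 to 12221 reads in a library, and ALB, APOA1, COL1A1, GATA1 and HBG1, genes of other lineages, had 0 to 3.

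Clustered histone genes supply the bulk of new nucleosomes when DNA is copied in S phase. Nearly all lack introns, and their mRNAs are the known exception among animal mRNAs in ending, not with a poly(A) tail, but just after a conserved stem-loop that is bound by the stem-loop binding protein SLBP. Variant genes are transcribed throughout the cell cycle, are mostly spliced, end in poly(A) tails, and encode histones that replace the S phase ones at particular places, such as H2A.Z at promoters and H2A.X at DNA breaks. In direct RNA sequencing a native strand gives 1 read whatever its length, so levels are given as CPM with no division by length. The standard adapter of the kit is joined to a poly(A) tail. The labels state that depleted RNA was used, and do not state whether tails were added to other RNA. What this does to the counts of clustered genes was not tested. In such bulk RNA, the share of cells in S phase and the amount of histone RNA per cell cannot be told apart.

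The stem-loop was present in the annotated sequence of many members that had reads. It is shown here for 1 model of each distinct stem-loop, as the transcript strand on GRCh38 with 5 flanking bases on each side, and the 16 bases of the stem-loop are in capitals. The models named are GENCODE release 29 transcripts, HIST2H2AA4 has a single model, and the reads are those of replicates 1 and 2.
HIST2H2AA4, chr1:149851569-149851594, plus strand, 29 and 71 reads: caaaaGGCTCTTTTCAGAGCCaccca
HIST2H2BC-201 (a pseudogene), chr1:149850297-149850322, minus strand, 5 and 5 reads: ccaaaGGCTCTTTTCAGGGCCattta
HIST1H2BD-202, chr6:26158582-26158607, plus strand, 3 and 5 reads: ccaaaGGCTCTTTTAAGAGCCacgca
HIST1H4J-201, chr6:27824454-27824479, plus strand, 10 and 14 reads: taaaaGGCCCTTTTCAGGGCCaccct
HIST2H4A-201, chr1:149833027-149833052, plus strand, 5 and 1 reads: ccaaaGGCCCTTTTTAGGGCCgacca
H2AFX-202, chr11:119094893-119094918, minus strand, 326 and 296 reads: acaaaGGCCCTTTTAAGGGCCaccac
The first of these stem-loops was shared by 14 clustered genes, including HIST2H2AA3, HIST3H2A and HIST1H2AC. The stem-loops found in H4 genes and in H2AFX began with GGCCCT, and those found in other members with GGCTCT.

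The annotated models differed in how far they ran past the stem-loop. Of the 62 known models of clustered genes, that is models that match an annotated transcript, 30 models in 25 genes held the histone stem-loop consensus, and they received 139 reads in replicate 1 and 220 in replicate 2. Over all 23533 known models of the table, 44 held it (0.187%). Only 3 of the 30 models ended within 30 bases after the stem-loop, HIST1H2BE-201, HIST1H4H-201 and HIST1H4J-201, with 12 and 15 reads together. A further 27 models in 23 genes ran on, with 127 and 205 reads. Of these, 22 went more than 100 bases past it, with 66 and 68 reads. The 5 that ended 31 to 100 bases past it had 61 and 137 reads. Most of those, 54 and 125, were in the HIST2H2AA3 and HIST2H2AA4 models, which ended 35 bases past it. HIST3H2A-201 ran on for 390 bases and HIST2H2BE-201 for 1729 bases. In 19 of the 30 models, with 107 and 185 reads, the poly(A) signal hexamer AATAAA or ATTAAA lay after the stem-loop within the last 50 bases of the annotated sequence. In HIST1H4J-201 the hexamer lay before it. Over all known models 56.6% had a hexamer within the last 50 bases, against 38.7% of the clustered and 35.3% of the variant models. By reads, the mean share was 69.4% over all known models and 81.1% for variant models. For clustered models it was 27.7%, or 70.6% without HIST1H1C. Of the 133 and 210 clustered reads in models with a hexamer, the HIST2H2AA3 and HIST2H2AA4 models alone held 54 and 125. These are features of the annotated models to which the reads were assigned, since the table gives no end position of a read, and a match is not a site that was shown to be used.

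The annotation of other clustered genes stops short of where a stem-loop could lie. In 23 known models of 23 clustered genes the annotated transcript ended at the stop codon, so that no 3′ untranslated sequence could be searched. They received 286 and 555 reads, 62.4% and 69.5% of the reads in known models of clustered genes, and without HIST1H1C they received 25 and 42 reads. The remaining 9 models of clustered genes had no match and received 33 and 23 reads. Among the variant genes, both known models of H2AFX held a stem-loop and none of the other 8 genes did. H2AFX, whose product marks DNA breaks once it is phosphorylated, is the variant gene known to make both kinds of mRNA, and its models ran on for 821 and 1044 bases past the stem-loop, with a hexamer in their last 50 bases. The last 30 bases of the main model of 6 members are shown for comparison, with the hexamer in capitals, or the stop codon in the case of HIST1H1C.
H2AFZ-201, chr4:99948088-99948117, minus strand: ggataagttcAATAAAggtcatatcccaaa
H3F3B-201, chr17:75776434-75776463, minus strand: atgagactaaAATAAAatttttgaagttaa
H1FX-201, chr3:129314771-129314800, minus strand: ttgggcacAATAAAgcgtttaaacctttca
HIST2H2AA4, chr1:149851595-149851624, plus strand: cgttttcaAATAAAagagttgttaatgctg
HIST3H2A-201, chr1:228456979-228457008, minus strand: tctgatATTAAAagtatttatgatctctaa
HIST1H1C-201, chr6:26055787-26055816, minus strand: cctaagaaggcggcgcccaagaagaaaTAG
HIST2H2AA4 and H1FX each had 16 bases after the hexamer, and H2AFZ and H3F3B each had 14. Not all variant models held a hexamer. H2AFV-202 and H2AFY-217, the main known models of their genes, had none in their last 50 bases, and neither did H3F3B-203.

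The 9 variant genes together received several times more reads than the 54 clustered genes. Variant genes took 2540 reads in replicate 1, or 0.187% of the library with a 95% Wilson interval from 0.180 to 0.194%. In replicate 2 they took 2722 reads, or 0.180% (0.174 to 0.187%), and the mean share was 0.183% ± 0.00464 (SD, n = 2). Clustered genes took 722 reads in replicate 1, or 0.0531% (0.0493 to 0.0571%). In replicate 2 they took 1071 reads, or 0.0709% (0.0668 to 0.0753%), and the mean share was 0.0620% ± 0.0126 (SD, n = 2). The intervals of the variant share overlapped between the libraries and those of the clustered share did not. These intervals cover counting error only. The ratio of variant to clustered reads was 3.52 in replicate 1 and 2.54 in replicate 2. Most of the difference of the clustered share lay in HIST1H1C. Without it, the clustered genes had 460 reads, or 0.0338% (0.0309 to 0.0370%), in replicate 1 and 558 reads, or 0.0369% (0.0340 to 0.0401%), in replicate 2, and these intervals overlapped. The ratio of variant to clustered reads was then 5.52 and 4.88, an alternative chosen after seeing the data. The clustered genes left without HIST1H1C did not all stay level. Their models of 1 exon had 123 CPM in replicate 1 and 191 in replicate 2, and those of 2 or more exons had 215 and 179.

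Of 90 clustered genes in the annotation, 54 had a read. Among the 71 protein-coding ones 51 did, and among the 19 pseudogenes 3 did. On chromosome 6, which holds the main histone cluster, 39 of 66 genes had a read, and on chromosome 1 it was 14 of 21. HIST4H4, the single gene on chromosome 12, had 4 and 3 reads. By protein family, reads were found for 3 of 6 coding H1 genes, 13 of 17 H2A genes, 12 of 18 H2B genes, 13 of 15 H3 genes and 10 of 15 H4 genes. A gene with no row, such as HIST1H1E, which encodes a linker histone, or HIST1H4E, had 0 reads, and 0 reads still leave room for 2.21 CPM at the depth of replicate 1 and 1.99 CPM at that of replicate 2. Replicate 1 detected 43 of the clustered genes and replicate 2 detected 46. Both libraries detected 35 of the 54 (64.8%), against 13411 of the 16645 annotated genes of the table (80.6%). At most 3 reads in the 2 libraries together were found for 27 clustered genes, so whether such a gene was present or missing in 1 library was within counting error. The median clustered gene had 3.5 reads in total, the median variant gene 375 and the median of all annotated genes 24.

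**Figure D1:**
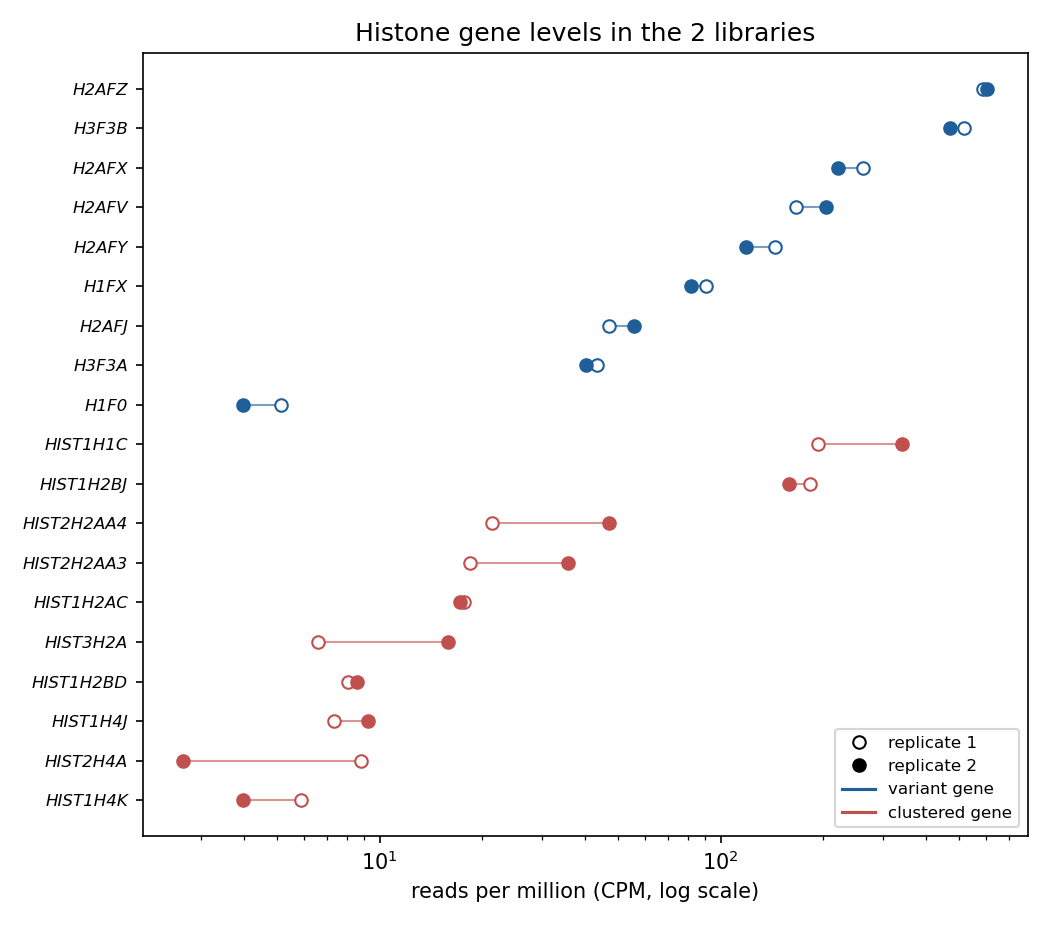
Level of the 9 variant genes (blue) and the 10 clustered genes with the highest mean (red) in CPM on a log axis, with an open point for replicate 1 and a filled point for replicate 2. HIST1H1C (193 and 340 CPM) and HIST1H2BJ (183 and 158 CPM) are the highest clustered genes. The other clustered genes, and the variant genes H3F3A and H1F0, are below 50 CPM in both libraries.

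H2AFZ, which encodes H2A.Z, was the most abundant member, with 803 reads (590 CPM) in replicate 1 and 915 reads (606 CPM) in replicate 2, a mean of 598 CPM ± 10.8 (SD, n = 2). Its rank among all annotated genes was 208. H2AFV, which encodes a close relative of H2A.Z, had 227 and 308 reads, 167 and 204 CPM, with a mean of 185 CPM ± 26.1 (SD, n = 2). H2AFZ thus lay above H2AFV in both libraries, and the difference was larger than the spread between them. H2AFX had 356 and 335 reads, 262 and 222 CPM, and its values lay above those of H2AFV in each library. H2AFY, which encodes macroH2A1, a histone with a large extra domain, had 196 and 179 reads, 144 and 118 CPM, below H2AFV in both libraries. H2AFJ had 64 and 84 reads, 47.0 and 55.6 CPM.

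The H3.3 genes H3F3A and H3F3B are known to encode the same protein, and their reads differed widely. H3F3B had 705 and 710 reads, 518 and 470 CPM, a mean of 494 CPM ± 34.2 (SD, n = 2), and was second to H2AFZ in both libraries. H3F3A had 59 and 61 reads, 43.4 and 40.4 CPM. H3F3AP4, a processed pseudogene of H3F3A (chromosome 2, 174719908 to 174720318, plus strand) that is no member, was listed at 335 and 339 reads, 246 and 224 CPM, all in its single known model of 411 bases. Those 411 bases occur without a differing base within H3F3A-203, the main known model of H3F3A, and differ from H3F3B-201 at 88 bases. The assignment of reads between H3F3A and H3F3AP4 is therefore uncertain. Summed, the H3F3A and H3F3AP4 counts were 394 and 400 reads, 290 and 265 CPM, which was still below H3F3B in both libraries. H2AFVP1, a pseudogene of H2AFV, had 3 and 2 reads.

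Among linker histones, the clustered gene HIST1H1C, which encodes H1.2, was far above the variant genes H1FX and H1F0. H1FX had 123 and 124 reads, 90.4 and 82.1 CPM, and H1F0, known from cells that have stopped dividing, had 7 and 6 reads, 5.15 and 3.97 CPM. HIST1H1C had 262 reads (193 CPM) in replicate 1 and 513 reads (340 CPM) in replicate 2, a mean of 266 CPM ± 104 (SD, n = 2). It held nearly all reads of the clustered H1 genes, with 0 and 4 reads left for HIST1H1B and HIST1H1D together.

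HIST1H1C and HIST1H2BJ, which encodes an H2B, together held 70.8% of the clustered reads in replicate 1 and 70.2% in replicate 2. HIST1H2BJ had 249 and 239 reads, 183 and 158 CPM, a mean of 171 CPM ± 17.6 (SD, n = 2). The other 52 clustered genes shared 211 and 319 reads. Next were the H2A genes HIST2H2AA4, with 29 and 71 reads, and HIST2H2AA3, with 25 and 54 reads. HIST1H2AC had 24 and 26 reads, HIST3H2A 9 and 24, HIST1H2BD 11 and 13, HIST1H4J 10 and 14, HIST2H4A 12 and 4, and HIST1H4K 8 and 6. The 44 clustered genes below these had between 1 and 14 reads in total, and no more than 7 in a library. By family, H2B genes had 297 and 299 reads, H2A genes 96 and 197, H4 genes 51 and 45 and H3 genes 16 and 13. The canonical H3 genes thus had few reads in both libraries, where the H3.3 gene H3F3B alone had 705 and 710.

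Several clustered genes are copies that the reads may not tell apart. HIST2H2AA3 and HIST2H2AA4 are a duplicated pair, and the 549 bases of the single model of HIST2H2AA3 occur unchanged in that of HIST2H2AA4. The same held for HIST2H4A-201 within HIST2H4B-201 over 583 bases and for HIST1H4K-201 within HIST1H4J-201 over 312 bases. In a comparison of the main known models of 61 members, 10 had another member with at least 95% identity over the shorter model. Counts of these 10 genes are uncertain singly. The HIST2H2AA pair had 54 and 125 reads when summed.

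The libraries differed in the counts of 2 members. This comparison asks how well the replicates agree, and its test, an exact binomial test against the library totals with Benjamini-Hochberg adjustment over all 10634 genes with at least 10 reads, compares 2 libraries and not conditions. Of the 25 members tested, 16 clustered and 9 variant, HIST1H1C and HIST2H2AA4 passed an adjusted p of 0.05, both higher in replicate 2. Of all genes tested, 5.05% passed, 2.72% higher in replicate 2 and 2.33% lower. The log2 ratio of replicate 2 to replicate 1 was 0.82 for HIST1H1C (exact binomial test, adjusted p = 4.71e-12) and 1.13 for HIST2H2AA4 (exact binomial test, adjusted p = 0.00893). HIST2H2AA3 had a log2 ratio of 0.94 and did not pass (exact binomial test, adjusted p = 0.0950), and the summed pair had 1.05 (exact binomial test, adjusted p = 0.000263), an alternative chosen after seeing the data. HIST3H2A had a log2 ratio of 1.22 on 9 and 24 reads (exact binomial test, adjusted p = 0.207). HIST1H2BJ had -0.21 and HIST1H2AC -0.04, and neither passed.

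None of the 9 variant genes passed in the exact binomial test, and none did with TMM or DESeq2 scaling of the library totals. At an unadjusted p of 0.05 in that test, 7 of the 25 members passed. They were H2AFV, H2AFX, HIST1H1C, HIST2H2AA3, HIST2H2AA4, HIST2H4A and HIST3H2A. With DESeq2 scaling H2AFY and H3F3B did as well. The share of all genes at this unadjusted level was not counted, so these passes have no background beside them. The log2 ratios of the 9 variant genes ran from -0.36 for H1F0 to 0.29 for H2AFV. The median was -0.14 over the 9 variant genes, 0.02 over the 16 clustered genes tested and 0.01 over all genes. The 38 clustered genes with fewer than 10 reads were not tested.

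**Figure D2:**
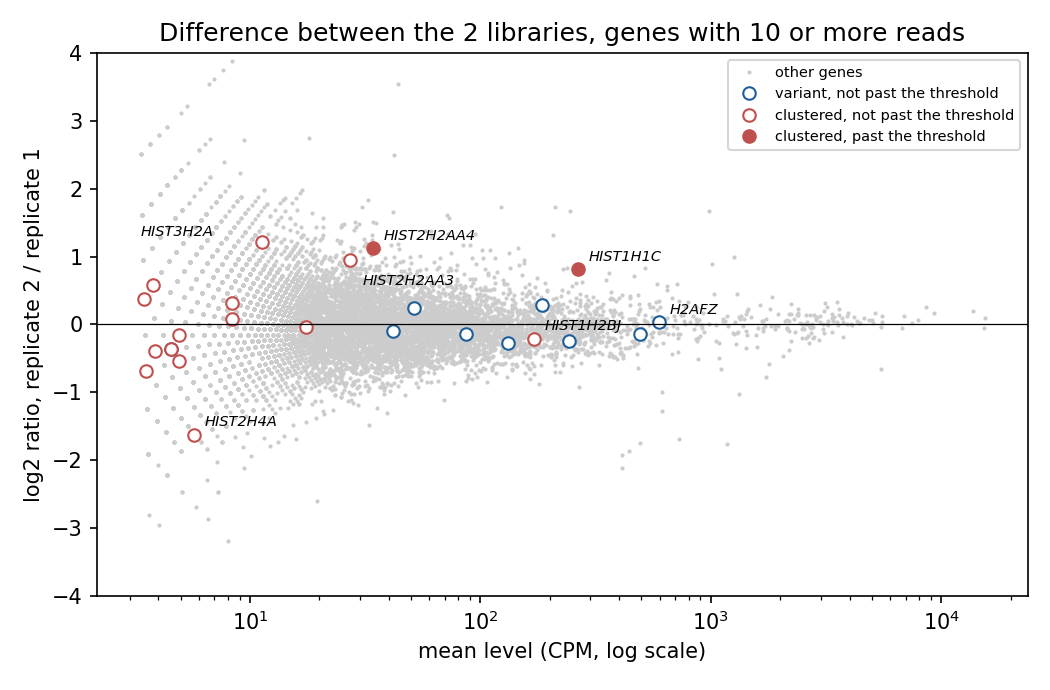
Log2 ratio of replicate 2 to replicate 1 against the mean level in CPM (log axis) for genes with at least 10 reads, with clustered genes in red, variant genes in blue and other genes in grey. The filled points, HIST1H1C and HIST2H2AA4, passed the test at ratios of 0.82 and 1.13, and the variant genes lie between -0.36 and 0.29.

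The reads of clustered genes in models of 1 exon were more numerous in replicate 2, and those in spliced models were not. Models of 1 exon had 428 reads in replicate 1 and 801 in replicate 2, 315 and 530 CPM. Spliced models, with 2 or more exons, had 294 and 270 reads, 216 and 179 CPM. HIST1H1C made up most of the first group. Without it, models of 1 exon had 167 and 288 reads, 123 and 191 CPM, a ratio of 1.55. Without HIST2H2AA3 and HIST2H2AA4 as well, they had 113 and 163 reads, 83.1 and 108 CPM, a ratio of 1.30. Models of 1 exon were higher in replicate 2 over all annotated genes too, with a ratio of 1.29. Spliced models were lower in replicate 2 over all annotated genes as well, with a ratio of 0.918, against 0.827 for clustered genes. The models of all genes include 1-exon models of genes that are mostly spliced, such as H2AFZ. Of the 1-exon reads of clustered genes, 410 and 770 were in known models. A further 104 protein-coding nuclear genes that were tested have only annotated models of 1 exon. In the exact binomial test, 1 of them was higher and 0 were lower in replicate 2. Over all genes tested, 2.72% were higher and 2.33% lower. The median log2 ratio of the 104 genes was -0.03. The set of 104 genes was formed after the data had been seen, and why 1-exon reads differed between the libraries was not tested.

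**Figure D3:**
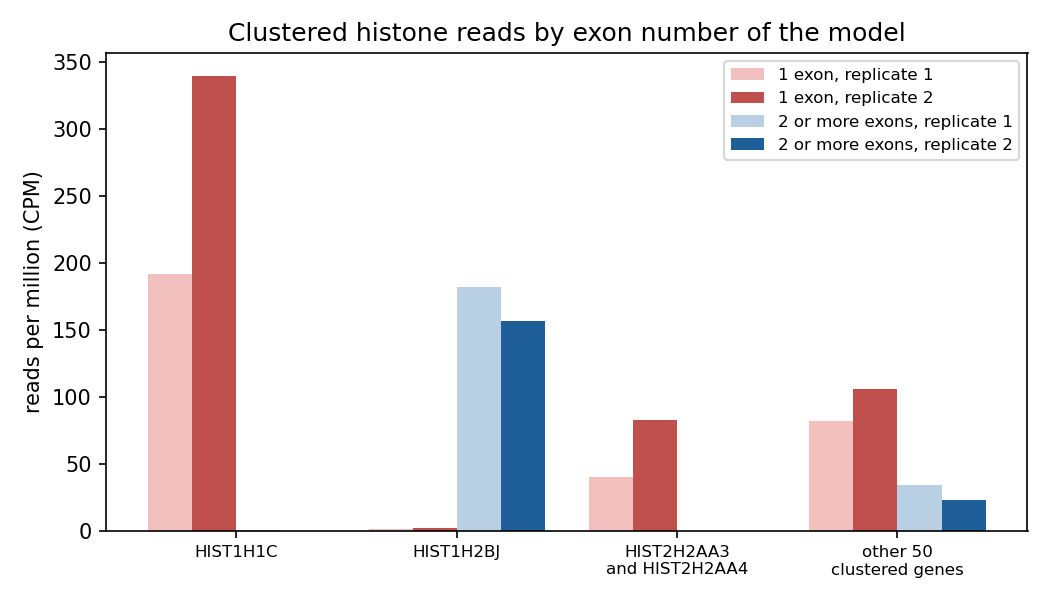
Reads of clustered genes in CPM, split by gene set and by the exon number of the model, with light bars for replicate 1 and dark bars for replicate 2. The 1-exon reads of HIST1H1C (261 and 513) and of the HIST2H2AA pair (54 and 125) are higher in replicate 2, whereas HIST1H2BJ has 247 and 236 spliced reads and 2 and 3 in 1-exon models.

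The rule compares clustered with variant genes by the category of the transcript model. Known models received 63.4% of the clustered reads in replicate 1 (59.9 to 66.9%) and 74.5% in replicate 2 (71.8 to 77.0%), with a mean share of 69.0% ± 7.83 (SD, n = 2). For variant genes the known share was 74.6% (72.9 to 76.3%) and 66.2% (64.4 to 68.0%), averaging 70.4% ± 5.95 (SD, n = 2). The means differed by less than the spread between the replicates, and the order of the classes was opposite in the 2 libraries. Over all annotated genes the known share was 56.5% and 46.4%. From replicate 1 to replicate 2 it was 11.1 percentage points higher for clustered genes, and fell by 8.41 percentage points for variant genes and by 10.1 for all genes. Without HIST1H1C, whose reads were nearly all known, the clustered share was 42.8% and 51.1%. The mean of the shares of single clustered genes with at least 10 reads in each library was 74.9% in replicate 1 and 69.8% in replicate 2, which is the opposite direction.

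Outside the known models the classes held different categories. NNC models, in which a splice site is missing from the annotation, received 32.7% (29.4 to 36.2%) and 21.4% (19.0 to 23.9%) of the clustered reads, against 5.55% (4.73 to 6.51%) and 5.22% (4.44 to 6.12%) of the variant reads. Of the 236 and 229 NNC reads of clustered genes, all but 3 and 4 were those of HIST1H2BJ. Genomic models, assigned to a gene whose splice pattern they do not share, received 0.970% (0.470 to 1.99%) and 1.59% (0.993 to 2.53%) of the clustered reads and 11.2% (10.1 to 12.5%) and 16.1% (14.8 to 17.5%) of the variant reads. Over all annotated genes they received 10.9% and 15.3%. In incomplete splice matches (ISM), any junctions are consecutive ones from a longer annotated transcript, and some ISM models have 1 exon and no junction. ISM models received 2.49% and 2.15% of the clustered reads and 5.04% and 9.77% of the variant reads. Over all genes they received 24.0% and 32.3%. In both libraries the Wilson intervals of the clustered and the variant class did not overlap for NNC and genomic models. For ISM models they did not overlap with all clustered genes counted, but in replicate 1 they overlapped the variant interval (4.25 to 5.96%) without HIST1H2BJ (2.42 to 5.93%) and without HIST1H1C (2.49 to 6.10%). Without HIST1H2BJ the NNC share of the clustered genes was 0.634% and 0.481%, below that of the variant genes. Without HIST1H2BJ, 93.9% and 94.7% of the clustered reads were in known models. All these intervals cover counting error of pooled reads and not the spread between genes. Variant genes read mostly in a known model of 1 exon also had few or no genomic reads. Their share was 0% and 0.299% in H2AFX and 0% in H1FX, H2AFJ and H1F0. Whether the class of a gene or its exon number goes with these shares was not tested.

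**Figure D4:**
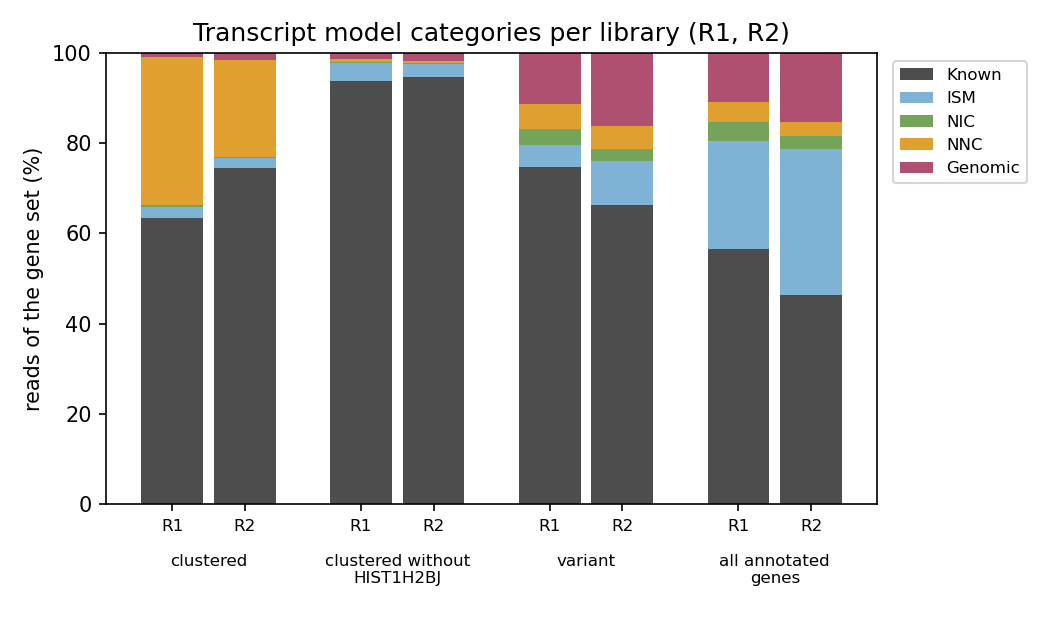
Share of reads (percent) in known, ISM, NIC, NNC and genomic models for clustered genes, clustered genes without HIST1H2BJ, variant genes and all annotated genes, with a bar for each library (R1 and R2). The NNC part of the clustered bars, 32.7% and 21.4%, is 0.634% and 0.481% once HIST1H2BJ is left out, and the genomic part is larger in the variant bars than in the clustered bars.

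HIST1H2BJ (chromosome 6, 27125897 to 27132750, minus strand) was the clustered gene with the most spliced reads, 247 and 236 of the 294 and 270 of all clustered genes, and most of them did not match its annotation. Known models held 5.62% of its reads in replicate 1 and 4.18% in replicate 2. A single 2-exon NNC model of 1778 bases, ENCODEHT000553583, had 199 and 191 reads, which was 79.9% of the gene in each library. A second 2-exon NNC model, ENCODEHT000553607 of 916 bases, had 30 and 27 reads, 12.0% and 11.3%. The annotated models HIST1H2BJ-202 and HIST1H2BJ-203, of 408 and 950 bases, have 2 exons and had 9 and 5 reads and 4 and 5 reads. HIST1H2BJ-201, the intronless coding model of 381 bases, had 1 and 0 reads. The 2 annotated models with 3′ untranslated sequence, HIST1H2BJ-202 and HIST1H2BJ-203, carry no stem-loop match. The position of the unannotated splice site is not in the table. HIST1H2AC also had spliced reads, with 45.8% and 46.2% of its reads in models of 2 or more exons, and its largest model was an ISM model of 1 exon and 1049 bases with 13 and 12 reads. HIST1H2BD-201, with 2 exons, had 6 and 3 reads, and the 1-exon model HIST1H2BD-202, which holds the stem-loop shown above, had 3 and 5.

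Of the variant genes, H1FX, H2AFJ, H1F0 and H2AFX were read mostly in a known model of 1 exon, and the other 5 in many models, most of them spliced. H1FX, H2AFJ and H1F0 each had 1 model, a known one of 1 exon, with all their reads. H2AFX had 99.7% and 99.1% of its reads in known models, of which the 1-exon H2AFX-202 of 1614 bases held 91.6% and 88.4% of the gene and the 2-exon H2AFX-201 of 1373 bases 8.15% and 10.7%. H2AFZ had 38 models. Its 5-exon model H2AFZ-201 of 979 bases had 590 and 534 reads. A genomic model of 1 exon and 438 bases, ENCODEHT000324874, was second with 65 and 160 reads. H2AFV had 35 models, with H2AFV-202 at 123 and 142 reads. H3F3B had 25 models: the 4-exon H3F3B-201 of 2705 bases had 415 and 320 reads, a genomic model of 1587 bases had 159 and 193, and H3F3B-203, a 1-exon model of 1701 bases, had 85 and 119. In H3F3A the most frequent model was H3F3A-203 in replicate 1, with 24 reads, and a genomic model of 477 bases in replicate 2, with 33.

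H2AFY was the variant gene least often read as annotated, with 31.1% of its reads in known models in replicate 1 and 26.8% in replicate 2. It had 53 models. The largest, ENCODEHT000393200, was an ISM model of 1 exon and 764 bases with 50 and 67 reads. The 9-exon model H2AFY-217 of 2789 bases had 39 and 22 reads, and a 9-exon NIC model of 1860 bases, which combines annotated splice sites in an unannotated way, had 37 and 22. H2AFY is the longest of the variant genes on the chromosome (chromosome 5, 135333900 to 135399914).

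Known shares were tested per gene between the libraries with Fisher's exact test over the 6340 genes with at least 20 reads in each. Of 13 members tested, H2AFZ and H3F3B passed an adjusted p of 0.05, both lower in replicate 2, where 27.1% of all genes passed, 26.9% lower in replicate 2 and 0.268% higher. The known share of H2AFZ was 75.1% in replicate 1 and 60.0% in replicate 2 (Fisher's exact test, adjusted p = 1.01e-09). For H3F3B it was 73.5% and 66.1% (Fisher's exact test, adjusted p = 0.0139), and without genomic models H3F3B no longer passed. None of the 5 clustered genes tested passed; at an unadjusted p of 0.05 the number was 0 as well, and 3 of the 5 had nearly all reads in 1 known model. Whether single known models took another part of their gene was tested likewise over 6384 models, of which 32.8% passed. Of 21 member models, 3 passed. H2AFZ-201 fell from 73.5% to 58.4% of the gene (Fisher's exact test, adjusted p = 1.31e-09), and H3F3B-201 from 58.9% to 45.1% (Fisher's exact test, adjusted p = 3.58e-06). H3F3B-203 rose from 12.1% to 16.8% (Fisher's exact test, adjusted p = 0.0401). When only known models were counted in the gene, H2AFZ-201 was no longer past the threshold.

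The known models of clustered genes were shorter than those of variant genes. Their read-weighted mean length was 731 bases in replicate 1 and 685 in replicate 2, against 1597 and 1537 for variant genes and 1563 and 1405 over all annotated genes. Most of these clustered reads, 286 of 458 and 555 of 798, were in models annotated only to the stop codon. Over all models, which include the 1778-base model of HIST1H2BJ, the means were 1051 and 906 bases for clustered genes and 1484 and 1360 for variant genes. Known models of clustered genes were found in both libraries in 38 of 62 cases (61.3%), those of variant genes in 20 of 34 (58.8%) and those of all genes in 57.8%.

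Genes that transcribe and process clustered histone mRNA were read in both libraries. All 16 of a list drawn up from background knowledge were tested, of which 0 were higher and 1 lower in replicate 2, where 2.72% of all genes were higher and 2.33% lower. SRRT, a factor of the nuclear cap-binding complex, was the highest of them, with 169 and 116 reads, a log2 ratio of -0.69 (exact binomial test, adjusted p = 0.00272). SLBP, which binds the stem-loop, had 104 and 122 reads, 76.4 and 80.7 CPM, and did not pass (exact binomial test, adjusted p = 0.952). NPAT, the coactivator of clustered histone transcription, had 15 and 12 reads. The lowest was CASP8AP2, with 4 and 8 reads. Of 21 histone chaperones and exchange factors, all tested, 2 were higher and 1 lower in replicate 2, beside the same 2.72% and 2.33% of all genes. NAP1L1, a chaperone of H2A and H2B, was the highest with 676 and 893 reads (log2 ratio 0.25; exact binomial test, adjusted p = 0.0188). ANP32E, which removes H2A.Z, had 54 and 105 reads (log2 ratio 0.80; exact binomial test, adjusted p = 0.0211). CHAF1A, the large subunit of the replication-coupled chaperone CAF-1, had 72 and 43 reads (log2 ratio -0.89; exact binomial test, adjusted p = 0.0320). The lowest was ATRX, with 7 and 14 reads. Of 11 histone genes outside the rule, 4 had a read: CENPA, the centromeric H3, had 65 and 84 reads, and the H2AFB genes had 0 to 2 in a library.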

How the data were processed

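The authors deposited raw read counts per transcript model, with 1 column for each library, and gave the exon number and length of each model as other properties, per the file headers. The file's name gives TALON as their program. Aligner and build (minimap2, hg38) stand in the submitters' processing notes. Versions, read filters and annotation release are not given in the sources used here. All 23533 known models matched GENCODE release 29 (GRCh38) in identifier, length and exon number, so positions and sequences came from it.

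Counts were summed per gene. Totals were 1360368 and 1510998 reads, and 3 reads were worth 2.21 and 1.99 CPM. Tests were exact (SciPy 1.17.1), with Benjamini-Hochberg adjustment over the whole table and a threshold of 0.05, and 0.5 reads were added before log2 ratios. Both were tested on simulated data. Alternatives used edgeR 4.0.16 and DESeq2 1.42.0 scaling. The stem-loop search used the histone stem-loop consensus on the transcript strand. Named genes are the 9 variant genes, the 10 highest clustered genes, members past the threshold, and from each list the highest, the lowest and those past it. SLBP, NPAT, pseudogenes and lower members were named after their values were seen. Members and lists were chosen with earlier results of these data known.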

Additional observations from a re-analysis of the deposited data

How the results depend on the processing

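No paired analysis was possible because both libraries form 1 group. Leaving out a replicate gives the other's value: 0.0531 to 0.0709% for the clustered share, 0.180 to 0.187% for the variant share, 43 to 46 clustered genes, known shares of 63.4 to 74.5% (clustered) and 66.2 to 74.6% (variant), and genomic shares of 0.970 to 1.59% and 11.2 to 16.1%. The tests between libraries need both. With known models only, the mean clustered share was 0.0877% and the variant share 0.255%, 4 members passed the gene test (HIST2H2AA3 and HIST3H2A in addition), and the median ratio (log2) over all genes tested moved to -0.26. The ratios then were -0.00127 for H2AFZ, 0.0375 for H2AFX, 0.146 for H1FX and -0.0265 for HIST1H2BD, each reversed and none past the threshold. Counting models with at least 5 reads gave a variant share of 0.196% and a clustered genomic share of 0%. At 5 reads in a library, 20 clustered genes were detected. Without genomic models H2AFZ had a ratio of -0.0473 and 3 members passed the gene test. In that setting 1 of 13 members passed the known-share test, where 1283 of all 4940 genes tested (26.0%) did. Over all genes, 289 higher and 248 lower calls in replicate 2 became 324 and 718 of 5528 genes with known models only, and 300 and 423 of 8758 without genomic models. Of 4320 models, 554 passed the usage test with known reads as denominator, among them 2 of the 3 member models. The cause of these changes was not tested. Alternatives chosen after seeing the data gave a clustered share of 0.0354% without HIST1H1C, a known share of 94.3% without HIST1H2BJ, and a ratio of -0.00341 for HIST1H4J with its copy. Without HIST1H1C the mean ratio of variant to clustered reads was 5.20 (2.54 to 3.52 in single libraries with it), and over all models the mean length of clustered models was 979 bases (685 to 731 for known models). As a mean over genes, the clustered known share was 74.9% and 69.8%, lower in replicate 2, where the share of summed reads was higher. HIST2H2AA3 passed with known models only and without genomic models, and HIST3H2A with known models only. Of 112 values of named genes under alternatives, 103 kept their direction and side of the threshold. Depth limits the 38 clustered genes under 10 reads to detection.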
